A study of Homo sapiens with 7 samples.

Results

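The 41 genes described here encode the proteasome and the factors that cap or assemble it. They were taken by symbol: 7 alpha and 7 beta subunits of the core (PSMA1 to PSMA7, PSMB1 to PSMB7), 3 immunoproteasome subunits (PSMB8, PSMB9, PSMB10), 19 genes of the 19S regulatory particle (PSMC1 to PSMC6 and 13 PSMD genes), 4 activator genes (PSME1 to PSME4) and POMP. All 41 were found on the array, on 58 probes and 76 spots of the 36337 gene names printed there. The samples were 4 replicate preparations of HCT116, a near-diploid human colon carcinoma line, here expressing the histone H2B fused to GFP, each treated with 10 nM bafilomycin A1 for 30 h. Bafilomycin A1 blocks the proton pump of vacuoles and lysosomes. The arrays of the 3 untreated samples were not used here, so every value below describes treated cells and the error between replicates, and no fold change over untreated cells was computed.

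The proteasome degrades ubiquitin-tagged proteins. Its core is a barrel of alpha and beta rings, in which 3 of the beta subunits carry the proteolytic sites, and the 19S particle on its ends binds ubiquitin chains, removes them and unfolds the protein with a ring of ATPases. In cells exposed to interferon gamma and in many leukocytes, PSMB8, PSMB9 and PSMB10 take the places of PSMB5, PSMB6 and PSMB7, which gives the immunoproteasome, an efficient source of peptides for MHC class I, and PSME1 with PSME2 forms the PA28 cap. Proteasomal and lysosomal degradation are the main routes of protein breakdown in human cells.

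Each array was a single-colour Agilent array with 58717 non-control spots, and the share of spots well above background ranged from 55.6% to 60.4%. Replicate 3 had 2249 outlying spots against 514 to 725 on the others. The 4 arrays shared 1 slide and 1 scan, and neither could be tested as a batch. A value below is the log2 background-subtracted signal of a probe minus the median of its array, and the value of a gene is the median over its probes. Different probes bind with different strength, so values are compared between arrays and not between genes. The labels do not say that the replicates came from separate cultures, so the spread between them may be technical. Markers of colon epithelium were detected for 6 of 6 genes. Of the leukocyte markers 2 of 5 were detected on all arrays, with LAPTM5 on none. The log2 of the summed signal of the leukocyte markers over the array median varied from 0.68 to 1.94. CD14 gave 1.16 and 1.29 on replicates 1 and 4, and neither CD14 nor LAPTM5 had a value on replicates 2 and 3. The sums thus cover different genes on different arrays, and their range is not a difference in leukocyte signal. Of the fibroblast markers 1 of 4 was detected (summed signal 2.67 to 3.29), with COL1A2 and PDGFRB on no array, and of the endothelial markers 2 of 3 (1.67 to 2.07), with PECAM1 on none. The part of such signal in the values below was not tested.

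The probes that carry the exchange of catalytic subunits are shown because what the arrays say about each subunit rests on a single 60-base sequence. They are printed 5′ to 3′ in the sense of the mRNA, the constitutive subunit before the inducible one.
PSMB5: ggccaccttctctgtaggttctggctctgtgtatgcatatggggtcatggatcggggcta
PSMB8: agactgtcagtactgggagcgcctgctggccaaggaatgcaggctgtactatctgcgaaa
PSMB6: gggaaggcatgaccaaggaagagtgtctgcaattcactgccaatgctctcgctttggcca
PSMB9: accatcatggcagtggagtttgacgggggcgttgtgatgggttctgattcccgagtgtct
PSMB7: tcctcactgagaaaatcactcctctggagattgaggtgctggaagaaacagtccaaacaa
On GRCh37, the build of the probe annotation, the PSMB8 probe spans chr6:32810023-32810490 on the minus strand, which is longer than the probe and so crosses an intron. The PSMB9 probe lies nearby in 1 block at chr6:32823918-32823977 on the plus strand, at base 132 of its transcript. The PSMB5 probe lies at chr14:23495485-23495544, the PSMB6 probe at chr17:4701404-4701589 across an intron, and the PSMB7 probe at chr9:127115891-127115950. The PSMB10 probe lies at chr16:67968412-67968471.

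The sequences before the transcription starts of the interferon-inducible genes are shown because PSMB8 was not detected while the others of this set were. RefSeq on GRCh38.p14 gave a start for 36 of the 41 members (43 starts in all), with none found for PSMA7, PSMB1, PSMB6, PSMB7 and PSMD4. Each line runs 5′ to 3′ from 80 bases before to 20 bases after the start, and capitals mark GAAA, any 2 bases and GAAA again, on either strand, the letters of an interferon-stimulated response element.
PSMB8 (chr6:32844028-32844127, - strand): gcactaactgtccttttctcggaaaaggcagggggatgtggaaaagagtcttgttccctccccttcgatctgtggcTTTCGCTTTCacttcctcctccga
PSMB9 (chr6:32854112-32854211, + strand): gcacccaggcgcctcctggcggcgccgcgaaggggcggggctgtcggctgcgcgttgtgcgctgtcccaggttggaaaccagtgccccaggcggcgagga
PSMB10 (chr16:67936831-67936930, - strand): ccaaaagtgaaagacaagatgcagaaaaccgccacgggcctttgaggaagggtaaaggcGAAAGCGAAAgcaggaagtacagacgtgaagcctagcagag
PSME1 (chr14:24136114-24136213, + strand): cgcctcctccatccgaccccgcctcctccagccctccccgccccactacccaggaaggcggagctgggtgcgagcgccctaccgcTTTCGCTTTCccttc
PSME2 (chr14:24146591-24146690, - strand): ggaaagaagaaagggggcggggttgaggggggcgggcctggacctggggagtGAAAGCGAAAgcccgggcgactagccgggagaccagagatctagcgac
The PSMB8 line is from the second of its 2 starts. Over the windows of 250 bases before to 50 bases after the start, this motif was found in 6 of the 43 member promoters (1 each of PSMA4, PSMB4, PSMB8, PSMB10, PSME1 and PSME2), beside 3.57% of all 35116 promoters. TTCNNNGAA, the letters of a gamma-activated site, was found in 7 of the 43 beside 7.66% of promoters, and PSMB8 held it 65 bases before its start. TGACNNNGC, the core of an antioxidant response element, was found in 12 of the 43 beside 13.3%, and CCAAT in 18 of the 43 beside 34.6%. Both strands were searched and matches of different motifs could overlap. Such matches describe the letters and do not show binding.

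Of the 41 genes, 37 were detected, that is, at least 1 probe was well above background on all 4 arrays. Over all gene names the share was 52.5%. All 7 alpha subunits were detected, 6 of 7 beta subunits, 17 of 19 genes of the 19S particle, all 4 activator genes and POMP, but 2 of 3 immunoproteasome subunits. The 4 exceptions were of different kinds. PSMB8 was well above background on no array, whereas PSMB7, PSMD3 and PSMD12 were bright on 3 arrays and lost their bright spot on replicate 3, where the scanner software marked its surrounding background as outlying. With outlying spots kept, 40 of 41 members were detected, beside 54.2% of all gene names.

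PSMB8, the inducible form of the chymotrypsin-like subunit, had signals of 14.6, 15.2, 12.3 and 5.81 on replicates 1 to 4, where the dimmest spot counted as well above background had 21.4, 21.5, 18.96 and 22.3. Relative to the array median its values were -2.40, -2.21, -2.51 and -3.45 (SD 0.55), with replicate 4 the lowest. All 4 lay below the dimmest spot well above background on the same array. The signal was still positive and different from background by the software's weaker test on all 4 arrays, so PSMB8 was at the edge of what these arrays resolve rather than at 0, and its values have no usable order. PSMB5, the subunit it replaces, was detected on all 4 arrays with values of 8.41, 8.65, 8.52 and 8.40 (SD 0.12).

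PSMB9, the inducible form of the caspase-like subunit, was detected on every array. Its signals were 388, 409, 289 and 319, and its values 2.33, 2.55, 2.04 and 2.33 (SD 0.21), with replicate 3 the lowest. Its counterpart PSMB6 had 8.25, 8.28, 8.50 and 8.25 (SD 0.12), with replicate 3 the highest. The difference between the pair was therefore least stable on that array: PSMB9 minus PSMB6 was -5.92, -5.74, -6.46 and -5.92, an SD of 0.31, which is larger than the SD of either gene. Without replicate 3 the SD of this difference was 0.10.

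PSMB10, the inducible form of the trypsin-like subunit, was bright on every array, with values of 6.44, 6.40, 6.78 and 6.54 (SD 0.17) and replicate 3 the highest. On replicate 3 it was thus high, as PSMB6 was, where PSMB9 was low. PSMB7 gave 8.34, 2.85, -4.46 and 1.41 when all its probes with a signal above 0 were used, because a second probe for another transcript, never well above background, entered on 3 arrays and the bright probe was missing on replicate 3. With outlying spots kept and only the detected probe, PSMB7 gave an SD of 0.092 and PSMB10 minus PSMB7 was -1.90, -1.99, -1.75 and -1.79 (SD 0.11). The wide PSMB7 values above are thus those of different probes and are not differences between the samples.

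**Figure D1:**
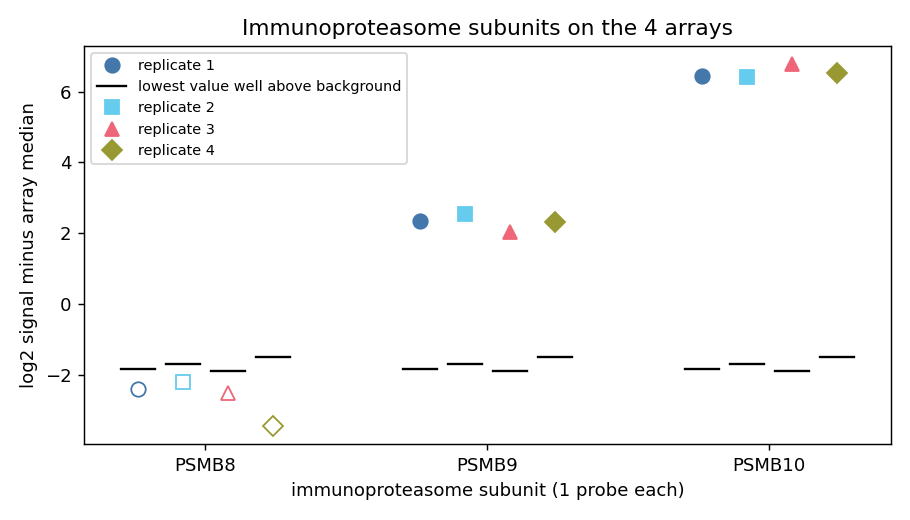
Values of the 3 immunoproteasome subunits (log2 signal minus the array median, vertical axis) on each replicate array, with filled symbols for probes well above background, open symbols for probes below it and a black bar at the dimmest value well above background on the same array. PSMB8 lies under the bar on all 4 arrays, from -3.45 to -2.21, while PSMB9 (2.04 to 2.55) and PSMB10 (6.40 to 6.78) lie above it; heights of different probes are not comparable.

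Genes that work with the immunoproteasome were read on the same arrays. All 13 genes of peptide loading and its control were detected. TAP1, a subunit of the peptide transporter whose gene lies beside PSMB9, gave 6.26, 6.52, 6.52 and 6.42 (SD 0.12), so that PSMB9 and TAP1 were both detected while PSMB8, in the same gene cluster, was not. The detected probe of TAP2, the other subunit, gave 3.35, 3.54, 3.68 and 3.40 (SD 0.15), and a second, dimmer probe pulled the median over both down to values from -1.01 to -0.21. The subunits restricted to thymus (PSMB11) and testis (PSMA8) were well above background on no array.

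Over the 13 detected alpha and beta genes of the core the median SD was 0.14. Of these, 2 (PSMA3 and PSMA4) spanned more than 1.4-fold between their highest and lowest array, beside 40.1% of all detected genes. The study's methods use this size for the ratio of an aneuploid to a diploid line, taken from medians of replicates. Here it is applied to the span over single arrays of 1 condition, a different measure, so the shares are not shares of changed genes. PSMA3 gave 7.19, 7.31, 7.90 and 7.33 (SD 0.32, 1.64-fold) and PSMA4 gave 6.70, 6.84, 7.43 and 6.88 (SD 0.32, 1.66-fold). In both alpha subunits replicate 3 stood above the other arrays. PSMA7, also an alpha subunit, went the other way, with 7.63, 7.62, 7.22 and 7.44 (SD 0.19). PSMA5, the steadiest of the core genes, gave 7.73, 7.88, 7.85 and 7.71 (SD 0.084). The remaining core genes had SDs from 0.093 to 0.18.

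Replicate 3 was above the gene's own mean in 12 of the 13 detected core genes, beside 63.3% of all detected genes, and the highest array in 9 of the 13. PSMA7 was the exception, and PSMA2, PSMA5 and PSMB5 were highest on replicate 2. Among all 37 detected members it was the highest in 23, the lowest in 8, and replicate 2 the highest in 12. Over all detected genes replicate 3 was the highest in 49.7% and the lowest in 23.4%, and replicate 2 the highest in 24.4%. The mean deviation of the core from each gene's own mean was -0.095, 0.012, 0.16 and -0.078 on replicates 1 to 4, beside -0.0094, 0.035, 0.065 and -0.091 for all 19083 detected genes. After normexp background correction and quantile normalization the core gave -0.016, 0.018, -0.0061 and 0.0037, an SD over arrays of 0.015 in place of 0.12.

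The 19S genes were split between the arrays. Among the ATPases, which form the unfolding ring, PSMC4 was steady at 5.96, 6.12, 6.02 and 6.0 (SD 0.065), the smallest SD of the 37 detected members. PSMC5 gave 5.36, 5.61, 4.87 and 5.03 (SD 0.33, 1.67-fold) and PSMC3 gave 6.04, 6.24, 5.68 and 5.93 (SD 0.23, 1.47-fold), with replicate 2 the highest and replicate 3 the lowest in both. PSMC1 gave 6.94, 6.92, 7.08 and 6.8, and PSMC6 gave 5.08, 5.38, 5.52 and 5.12, with replicate 3 the highest in these. Subunits of the same ring thus had their highest values on different arrays.

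PSMC2 showed what an uneven number of probes does to a gene. Its median was 3.30, 6.16, 3.11 and 3.21 (SD 1.48), because a dim probe for another transcript was left out as outlying on replicate 2. The probe well above background on all arrays gave 6.10, 6.16, 5.80 and 6.03 (SD 0.16). The number of probes with a value differed between arrays in 2 of the 37 detected members, PSMC2 and PSME4, beside 8.42% of all detected genes.

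In the rest of the base, PSMD2, a scaffold that binds ubiquitin-like domains, gave 7.10, 7.35, 6.95 and 6.86 (SD 0.22, 1.41-fold), with replicate 2 the highest. PSMD1, the other scaffold, gave 5.97, 6.19, 6.36 and 6.02 (SD 0.18), and PSMD4, a ubiquitin receptor, gave 7.82, 7.87, 8.04 and 7.79 (SD 0.11). These were highest on replicate 3.

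In the lid, PSMD13 had the widest span of the 19S genes from detected probes, with 5.87, 6.02, 5.17 and 5.54 (SD 0.38, 1.79-fold) and replicate 3 the lowest. PSMD14, the deubiquitinase that clips ubiquitin chains from the substrate, gave 5.57, 5.83, 5.57 and 5.62 (SD 0.12). PSMD8 and PSMD11 had SDs of 0.082 and 0.10. PSMD6 and PSMD7 were printed as 10 spots each. For PSMD6 the SD of its kept spots within an array averaged 0.081, and the SD between arrays was 0.14. For PSMD7 they were 0.19 and 0.15. PSMD6 kept 8 of its 10 spots on each array, the others being left out as outlying, and PSMD7 kept all 10. The SDs within an array are therefore not comparable between the 2 genes. An array's value is the mean over these spots, so its error from spot noise is smaller than the SD of single spots.

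PSMD3 and PSMD12, the lid genes not counted as detected, lacked a usable bright spot on replicate 3. PSMD12 gave 6.14, 6.31 and 6.25 on the other arrays, and 6.55 on replicate 3 with the outlying spot kept (SD 0.17). The bright probe of PSMD3 gave 5.62, 5.70 and 5.37 on replicates 1, 2 and 4, and its SD was 0.20 with the outlying spot kept. The assembly chaperones PSMD10 and PSMD5 completed the class. PSMD10, also known as gankyrin, gave 3.1, 2.88, 3.12 and 2.85 (SD 0.14), and the 3 detected probes of PSMD5 had a median of 0.51, 0.86, 0.53 and 0.97 (SD 0.23).

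**Figure D2:**
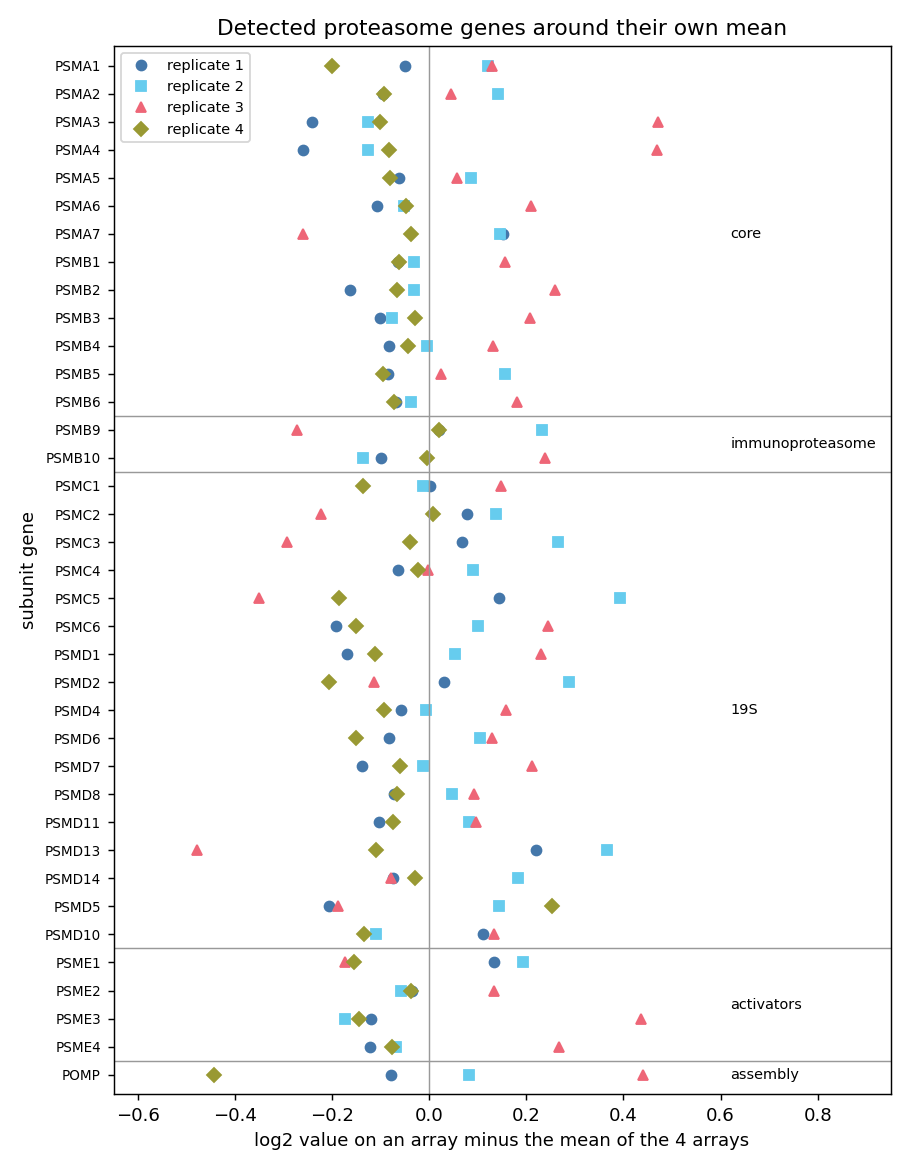
Each detected gene's log2 value on an array minus its own mean over the 4 arrays (horizontal axis), from probes well above background on all arrays, with a symbol per replicate and genes grouped by class. Replicate 3 lies to the right of 0 in 12 of 13 core genes (63.3% of all detected genes), and to the left in PSMA7, PSMB9, PSMC2, PSMC3, PSMC5, PSMD13 and PSME1 among others.

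Over the 17 detected 19S genes the mean deviations were -0.030, 0.12, -0.017 and -0.077, an SD over arrays of 0.087, with replicate 2 and not replicate 3 the highest. After quantile normalization, which brings all arrays to the same distribution, they were 0.052, 0.10, -0.17 and 0.010 (SD 0.12), and replicate 3 was the lowest array in 10 of the 17 and replicate 2 the highest in 10, beside 34.7% and 20.2% of all detected genes. The order of the core and the 19S genes on replicate 3 was the same under both treatments, with the core above the 19S genes. The sign of the core on that array depended on the normalization, and the 19S genes were below 0 under both. The difference between the classes was not tested.

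**Figure D3:**
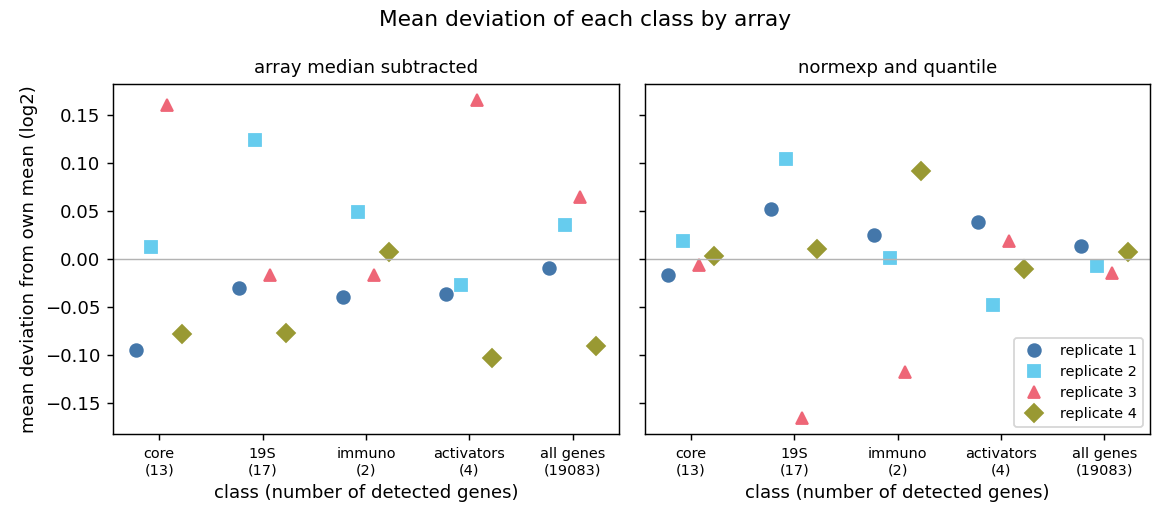
Mean deviation of each class from its genes' own means (log2, vertical axis) on each replicate, with the array median subtracted (left) and after normexp and quantile normalization (right), for genes detected on all arrays. The core on replicate 3 falls from 0.16 to -0.0061 between the treatments and the 19S genes from -0.017 to -0.17; no error bars are drawn, since each point is a mean over the genes of 1 array.

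The activators differed in steadiness. PSME2, the beta subunit of PA28, gave 8.93, 8.90, 9.10 and 8.93 (SD 0.089), while its partner PSME1 gave 4.12, 4.18, 3.81 and 3.83 (SD 0.19), with replicate 3 the highest in the first and the lowest in the second. PSME3, the nuclear PA28 gamma, gave 4.41, 4.36, 4.97 and 4.39 (SD 0.29, 1.53-fold), with replicate 3 alone above the others. PSME4, the PA200 activator, gave a median of 2.21, 2.26, 3.68 and 3.34 over all its probes (SD 0.75), and 3.29, 3.35, 3.68 and 3.34 (SD 0.18) from the probes well above background. POMP, the chaperone that matures the core, gave 1.90, 2.07, 2.42 and 1.54 (SD 0.37, 1.84-fold), the widest span of the detected members once dim probes were left out.

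The typical spread of the members was smaller than that of all genes, and the members were also brighter. Their median value was 6.54, beside 2.06 with all probes and 2.30 with detected probes for all detected genes. The members were not compared with genes of like brightness, so the part of brightness in their smaller spread was not tested. The median SD of the 37 detected members was 0.16 with all probes and with detected probes, beside 0.21 and 0.19 for all detected genes. Of the 37, 11 spanned more than 1.4-fold, beside 46.4% of all detected genes, and with detected probes 9, beside 40.1%. The 9 were PSMA3, PSMA4, PSMB9, PSMC3, PSMC5, PSMD2, PSMD13, PSME3 and POMP, and PSMC2 and PSME4 were added when dim probes were included. In 5 of the 37 members 1 array stood apart by Dixon's ratio of a gap to the range, beside 8.48% of all detected genes.

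**Figure D4:**
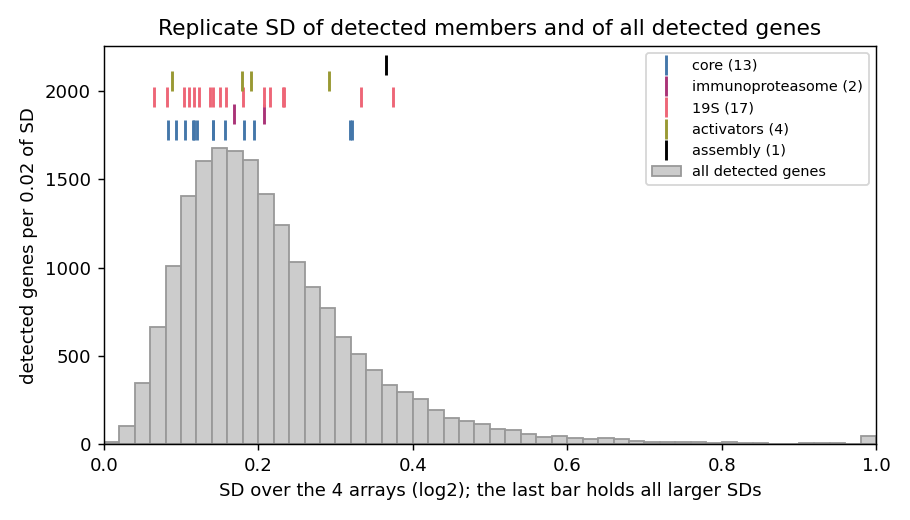
SD over the 4 arrays of every detected gene (grey bars, number of genes per bin of log2 SD, the last bar holding all larger values) and of the 37 detected members (coloured ticks by class), from probes well above background on all arrays. The members' median is 0.16 and that of all genes 0.19, and the ticks at the right are PSMD13 (0.38) and POMP (0.37).

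On replicate 3 some members were high and others low, and the direction was set beside the position of the probe in its transcript. Only detected probes assigned to a RefSeq mRNA were counted. Of the 5 member probes within the first 400 bases of a transcript, which belong to PSMA7, PSMB9, PSMC5, PSMD10 and PSME1, replicate 3 was the lowest array for 4 (all but PSMD10) and the highest for none. Of the 23 probes between 400 and 1000 bases it was the lowest for 2, and of the 19 beyond 1000 bases for 3. The member shares beyond 400 bases were thus 8.7% and then 15.8%, with no steady fall. Over all detected probes assigned to a RefSeq mRNA the shares in the 3 classes were 28.4%, 27.2% and 16.9%. After quantile normalization replicate 3 was the lowest for all 5, for 11 of 23 and for 5 of 19 member probes, beside 43.5%, 43.1% and 29.7%. These limits were chosen after the values were seen, so the counts describe these probes and cannot test an effect of position. Transcripts differ in length, so a position counted from the 5′ end does not give the distance to the 3′ end.

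Pairs of probes on the same RefSeq mRNA hold the gene constant, but not the brightness or GC content of the probes. For 8 members, a pair at least 60 bases apart was well above background on all arrays, and the upstream value was taken from the downstream value. Replicate 3 had the highest such difference in 5 of 8 pairs, beside 64.9% of the 2432 pairs over all genes, and the median deviation on replicate 3 was 0.19 for the members and 0.22 for all pairs. PSMD14 showed it plainly. Its upstream probe (base 535) gave 3.96, 4.2, 3.56 and 3.87, lowest on replicate 3, and its downstream probe (base 1317) gave 7.19, 7.46, 7.58 and 7.37, highest on replicate 3. The deviation of the difference on replicate 3 was 0.52 for PSMD14, 0.45 for PSMD2, 0.76 for PSMD5 and 0.31 for PSMB2. It was -0.12 for PSMD1 and -0.21 for PSME4, so the pattern did not hold in every member. The median value of PSMD14, with an SD of 0.12, thus hid 2 probes with SDs of 0.26 and 0.17 that moved apart. GC content fell from the upstream to the downstream probe in PSMB2 (55% to 41.7%), PSMD2 (45% to 38.3%), PSMD5 (45% to 40%) and PSME4 (45% to 35%). It rose in PSMD14 (35% to 40%) and PSMD1 (36.7% to 41.7%), and was equal in PSMB1 and PSMC1. The parts of position and of GC content in these pairs were not tested.

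**Figure D5:**
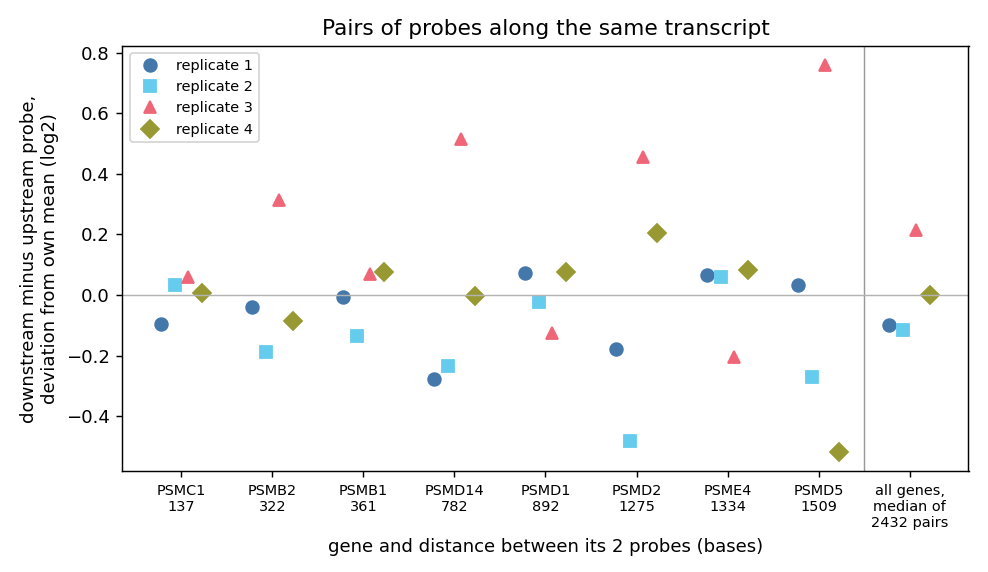
Downstream minus upstream probe value on each replicate, as the deviation from the mean of the 4 arrays (log2, vertical axis), for 8 members ordered by the distance between their probes in bases, and as the median over 2432 pairs of all genes at the right. Replicate 3 is the highest in 5 of the 8 members, reaches 0.76 in PSMD5 and falls below 0 in PSMD1 and PSME4.

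The GC content of the probes was set beside their deviation on each array. Across the 49 detected member probes, of 35% to 55% GC, the deviation on replicate 3 correlated with GC content at a Spearman rho of -0.27, beside -0.44 across all 24633 detected probes. The values for members and for all detected probes were 0.058 and 0.44 on replicate 1, 0.094 and 0.096 on replicate 2, and 0.34 and 0.17 on replicate 4. These are correlations across probes that share arrays and are given as a description, and the part of GC content in the members' values was not tested.

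Of the other genes around the proteasome, all 6 assembly factors, all 6 associated proteins and all 5 ubiquitin genes were detected, and 3 of 4 regulators. NFE2L1, the transcription factor that raises proteasome genes when the proteasome is inhibited, gave 7.05, 7.20, 7.22 and 6.95 (SD 0.13), a span of 1.20-fold. NFE2L2, its relative, was well above background on no array by its single probe. The median SD from detected probes was 0.14 for the assembly factors, 0.19 for the associated proteins and 0.12 for the ubiquitin genes.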

How the data were processed

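The files the authors deposited, 1 per array, are the output of Agilent Feature Extraction 10.7.3.1. The deposited signals are linear intensity values, from which the software had subtracted the background, with no normalization between arrays and with flags for outlying, saturated and well above background spots. No spot was saturated (0 on each array). Probe coordinates are those of GRCh37. Following the study's methods, signals were log2 transformed, centred on the array's median over non-control probes and summarised per gene as the median of its probes. Control and outlying spots were left out first, the spots of a probe averaged and values at or below 0 left out, steps chosen here. Detection of a probe required over 50% of its kept spots to be well above background.

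With 1 condition no test was run. Spread was given as the SD, the share of genes spanning over 1.4-fold, and Dixon's ratio for 4 values (critical value 0.829). The statistics were tested on simulated data. The 41 members, the other lists and the markers were chosen with earlier results of these data known. All members are named; of the other lists, the genes on no array, those with 1 array apart, TAP1, TAP2 and NFE2L1. The alternatives tried were centring of the processed signal on its 75th percentile, normexp (offset 50) with quantile normalization in limma 3.58.1, only detected probes, outlying spots kept, another centring, complete probes only, a weaker detection flag and leaving out each array. The SD of the 4 leave-one-out values was the limit for calling a value moved, and for counts a change over 1.5-fold. Combinations of these with detected probes only, and the classes of probe position, were added after seeing the data. Starts and promoters came from RefSeq on GRCh38.p14, and none of its coordinates were mixed with those of the probes. Python 3.11.15 with pandas 2.3.3 and R 4.3.3 were used. The precision is limited by the number of arrays.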

Additional observations from a re-analysis of the deposited data

Results flagged for a closer look

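In 5 of the 37 detected members 1 array stood apart from the others by Dixon's ratio, beside 8.48% of all detected genes. By chance about 5% of genes are marked. Replicate 3 was the high array in PSMB1 (ratio 0.850, with 9.10, 9.14, 9.33 and 9.11 on replicates 1 to 4), PSMB6 (0.865), PSME2 (0.881) and PSME3 (0.913). In PSMC2 (0.936) replicate 2 stood apart, and this was the array on which a dim probe was left out. From detected probes 5 members were again marked, beside 7.17% of all detected genes. PSMC2 was then not marked (0.643) and PSME4 was (0.864, with 3.29, 3.35, 3.68 and 3.34, replicate 3 apart). Among the 33 detected genes of the other lists, 2 were marked with all probes. B2M, the light chain of MHC class I, was marked at 0.838, with 7.73, 8.0, 7.68 and 7.69 and replicate 2 apart. ERAP1, a peptide-trimming enzyme, was marked at 0.925, with -0.20, 2.01, 2.00 and 1.85 and replicate 1 apart. Its detected probe alone gave 1.85, 2.01, 2.00 and 1.85. The part of the number of probes, and of replicate 3 as a library, in the other marks was not tested.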

How the results depend on the processing

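No paired analysis was possible because the untreated samples that share replicate numbers were not analysed here. Between 37 and 40 members were detected under every alternative. The number spanning over 1.4-fold was 8 to 12 under the other normalizations and filters, and 7 to 11 with an array left out. With detected probes only it was as few as 6 without replicate 2 and 3 without replicate 3. From the same probes a span can only stay or shrink when an array is left out, so the direction of these falls was set by the measure. The median SD of the detected members fell from 0.16 to 0.12 with the processed signal and to 0.098 with quantile normalization, with all or detected probes. It was 0.11 to 0.18 with an array left out, and 0.092 without replicate 3 and with detected probes only.

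The SD over arrays of the core's mean deviation was 0.12, and 0.015 after quantile normalization with either set of probes. It was 0.20 with outlying spots kept, when PSMB7 enters with different probes on different arrays. With an array left out it was 0.12 to 0.24. The highest was without replicate 3, when PSMB7 also enters with different probes, and from detected probes it was 0.056 there. That of the 19S genes was 0.17 with all probes, when PSMC2 enters without its dim probe on replicate 2, and 0.087 from detected probes. With all probes and an array left out it was 0.048 to 0.31. The lowest was without replicate 2, and 0.035 there from detected probes. The highest was without replicate 3, when PSMD3 enters with different probes on different arrays, and 0.10 there from detected probes. That of PSMB9 and PSMB10 was 0.038. It is a mean over 2 genes with opposite directions on replicate 3, and lies below their own SDs of 0.21 and 0.17. It does not show a steadier class. With the processed signal it was 0.081, and with quantile normalization and either set of probes 0.087. It was 0.11 when centred over all probes, 0.19 with the weaker flag, which adds PSMB8, and 0.024 to 0.046 with an array left out. That of the activators was 0.22 with all probes, when PSME4 enters with different probes on different arrays. It was 0.12 from detected or complete probes, and 0.12 with outlying spots kept and detected probes. With the processed signal it was 0.069, with quantile normalization 0.033 (0.037 from detected probes) and when centred over all probes 0.29. With an array left out it was 0.11 to 0.27, or 0.042 to 0.14 from detected probes.

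The SD of PSMB8 minus PSMB5 was 0.48, 0.17 with quantile normalization and 0.12 to 0.58 with an array left out, values that rest on a PSMB8 probe not well above background on any array and carry no reading. PSMB9 minus PSMB6 had 0.31, and 0.10 to 0.38 with an array left out. PSMB10 minus PSMB7 had 5.41 from all probes, 3.46 with the processed signal, 2.14 with quantile normalization, 3.26 with outlying spots kept and 3.69 to 6.60 with an array left out. From detected probes it had 0.11 with outlying spots kept and 0.099 without replicate 3. Except where stated, the cause of these moves was not tested. With 4 arrays of 1 condition, signals near background such as that of PSMB8 are bounds, and spread between replicates is all that can be read.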
